A study of Chlamydomonas reinhardtii with 18 samples.

Results

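The mitochondrial genome of the green alga Chlamydomonas reinhardtii encodes 7 subunits of the respiratory chain, and their transcripts were followed here in a wild type and a mutant during 48 h of darkness. The genes are nad1, nad2, nad4, nad5 and nad6 of complex I, cob of complex III and cox1 of complex IV. They were taken by name, as the rows of the expression table whose identifiers begin with CreMt and whose symbol is among these names, and they make up 7 of 17693 genes. The rule uses names and no threshold on measured values.

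The 18 RNA-seq libraries form 6 groups of 3 replicates each. Strain CC-4532 served as wild type (WT), and the mutant tpt10b lacks CreTPT10, which the name places among the triose phosphate translocators, carriers of phosphorylated sugars. Both grew to mid-log phase in TAP, a medium that supplies acetate, under dim light near 30 µmol photons m-2 s-1, where the 0 h samples were taken. The other samples followed after 24 h or 48 h without any light. How much acetate was left by then is not given in the sources used here. The comparisons set tpt10b against WT and darkness against low light. No culture kept in light was sampled at 24 h or 48 h. Effects of darkness therefore cannot be told apart from those of time in culture. tpt10b is the only mutant line analysed here. No row of the table carries the symbol of the targeted gene, so its loss was not checked. The labels call the replicates biological but do not say whether each was a separately grown culture, so p-values measure the spread between these samples.

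Values are TPM, a read abundance divided by gene length and scaled to 1000000 per library. Multiplied by coding length they returned whole reads, 59603478 to 87965038 per library, of which 571 to 5796 fell on the 7 genes. The summed TPM of the 7 genes was 3.81 to 62.9, so single members often rested on few reads and counting error is part of their spread. The tpt10b 24 h libraries stood apart in having reads on fewer genes, 15490 to 16231 against 16316 to 16901 in the other groups. Plastid-encoded genes held 5.92% to 11.1% of TPM in the tpt10b 24 h libraries and 0.919% to 7.22% in the others, so that these ranges overlapped. Whether poly(A) RNA was selected or rRNA removed is not given in the sources used here, so how well mitochondrial RNA was captured is not known. In bulk RNA, fewer of these transcripts per cell and more of other RNA cannot be told apart. Each comparison was therefore repeated after median-of-ratios rescaling, called rescaling below, which sets the typical gene to no difference.

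As background, the respiratory chain passes electrons from NADH through complex I, ubiquinone, complex III and cytochrome c to oxygen at complex IV, and pumps protons on the way. The mitochondrial genome of this alga is a small linear molecule that keeps only membrane-embedded core subunits of these complexes, a reverse transcriptase-like gene, tRNA genes and fragmented rRNA genes. Other subunits that are mitochondrial genes in most organisms, such as those for COX2, COX3 and ATP6, have moved to the nucleus. The genome is read outwards from a region between nad5 and cox1. cob, nad4 and nad5 lie on the left arm, and cox1, nad2, nad6 and nad1 on the right.

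Among members, cox1 was the most abundant transcript in WT at 0 h, at 3.21 ± 0.253 TPM (SD, n = 3 libraries here and below). nad2 (2.11 ± 0.174) and cob (2.06 ± 0.259) followed with overlapping libraries, then nad6 (1.00 ± 0.194), nad4 (0.878 ± 0.240), nad5 (0.746 ± 0.0309) and nad1 (0.476 ± 0.197). In tpt10b at 48 h the order had changed. cob led at 18.9 ± 3.59 TPM, above every cox1 library (13.3 ± 1.74), and nad6 (6.28 ± 1.88), nad4 (4.53 ± 1.46) and nad2 (4.39 ± 0.671) came next with each neighbour overlapping, ahead of nad5 (2.92 ± 0.290) and nad1 (2.08 ± 0.396). All 7 passed the filter of at least 1 TPM in at least 3 libraries. nad5 reached 1 TPM in 8 of 18 libraries, nad1 in 9, nad4 in 11 and nad6 in 12, of which 6 for each gene were the tpt10b libraries at 0 h and 48 h, so for these genes the filter was passed mainly or partly through groups where they were high.

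nad2 encodes a membrane subunit of complex I of the type related to proton-pumping antiporters. In WT it measured 1.94, 2.29 and 2.08 TPM in the 0 h libraries, 1.47, 0.884 and 0.665 at 24 h, then 2.33, 1.58 and 1.23 at 48 h. In tpt10b it measured 8.30, 11.8 and 8.40 TPM at 0 h, 1.80, 1.09 and 0.422 at 24 h, then 5.16, 4.03 and 3.97 at 48 h. Each tpt10b library at 0 h lay above every other library of the study for this gene, and the WT libraries at 24 h lay below those at 0 h.

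nad6 encodes a small membrane subunit of complex I. In WT it measured 1.11, 1.11 and 0.775 TPM at 0 h, 2.80, 0.465 and 0.996 at 24 h, then 3.61, 1.23 and 2.16 at 48 h. In tpt10b it measured 5.79, 5.22 and 5.28 TPM at 0 h, 0.329, 0.938 and 0.225 at 24 h, then 7.52, 4.11 and 7.20 at 48 h. The tpt10b libraries at 0 h and 48 h lay above every WT library, and those at 24 h rested on 13 to 39 reads.

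nad4 and nad5 encode the other large antiporter-like subunits of complex I. In WT nad4 measured 0.951, 1.07 and 0.610 TPM at 0 h, 1.51, 0.763 and 0.925 at 24 h, then 2.37, 1.41 and 1.29 at 48 h. In tpt10b nad4 measured 2.72, 3.44 and 2.22 TPM at 0 h, 0.937, 0.936 and 0.330 at 24 h, then 6.21, 3.56 and 3.81 at 48 h. The WT libraries of nad4 at 48 h lay above those at 0 h, and in tpt10b the 3 times did not overlap. In WT nad5 measured 0.724, 0.781 and 0.733 TPM at 0 h, 0.765, 0.270 and 0.672 at 24 h, then 1.77, 0.732 and 0.941 at 48 h. In tpt10b nad5 measured 2.61, 2.83 and 2.36 TPM at 0 h, 1.52, 0.265 and 0.0774 at 24 h, then 3.22, 2.64 and 2.90 at 48 h. The tpt10b 24 h libraries of nad5 spread most among the groups of this gene, from 15 to 264 reads.

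nad1, which encodes a membrane subunit where the ubiquinone-binding arm meets the membrane, had the lowest mean of the 7 genes over all libraries. In WT it measured 0.703, 0.346 and 0.379 TPM at 0 h, 1.31, 0.568 and 0.534 at 24 h, then 1.47, 0.631 and 0.774 at 48 h. In tpt10b it measured 1.80, 1.35 and 1.17 TPM at 0 h, 1.34, 0.279 and 0 at 24 h, then 2.50, 1.72 and 2.02 at 48 h. tpt10b 24 h replicate 3 had 0 reads of nad1, which allows up to 3 reads or 0.0287 TPM by counting error alone, while replicate 1 of that group had 125 reads.

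cob encodes cytochrome b, the core of complex III that carries electrons between its quinone sites. In WT it measured 1.91, 2.36 and 1.90 TPM at 0 h, 3.85, 1.66 and 2.71 at 24 h, then 9.55, 4.85 and 6.49 at 48 h. In tpt10b it measured 5.86, 7.03 and 5.96 TPM at 0 h, 2.44, 2.30 and 1.40 at 24 h, then 23.0, 16.8 and 16.8 at 48 h. The 48 h libraries were the highest of each genotype without overlap with its other times, and all tpt10b libraries at 48 h lay above all other libraries.

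cox1 encodes the catalytic subunit of cytochrome c oxidase, where oxygen is reduced. In WT it measured 3.36, 2.91 and 3.35 TPM at 0 h, 5.64, 3.08 and 3.83 at 24 h, then 10.1, 1.97 and 4.33 at 48 h. In tpt10b it measured 11.6, 13.2 and 9.45 TPM at 0 h, 3.90, 2.24 and 1.36 at 24 h, then 15.3, 12.6 and 12.0 at 48 h. The WT 48 h libraries spanned both the lowest and the highest WT values, and replicate 2 of that group was the low library. In that group and in WT at 24 h and tpt10b at 48 h, replicate 1 was the highest library for all 7 genes.

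**Figure D1:**
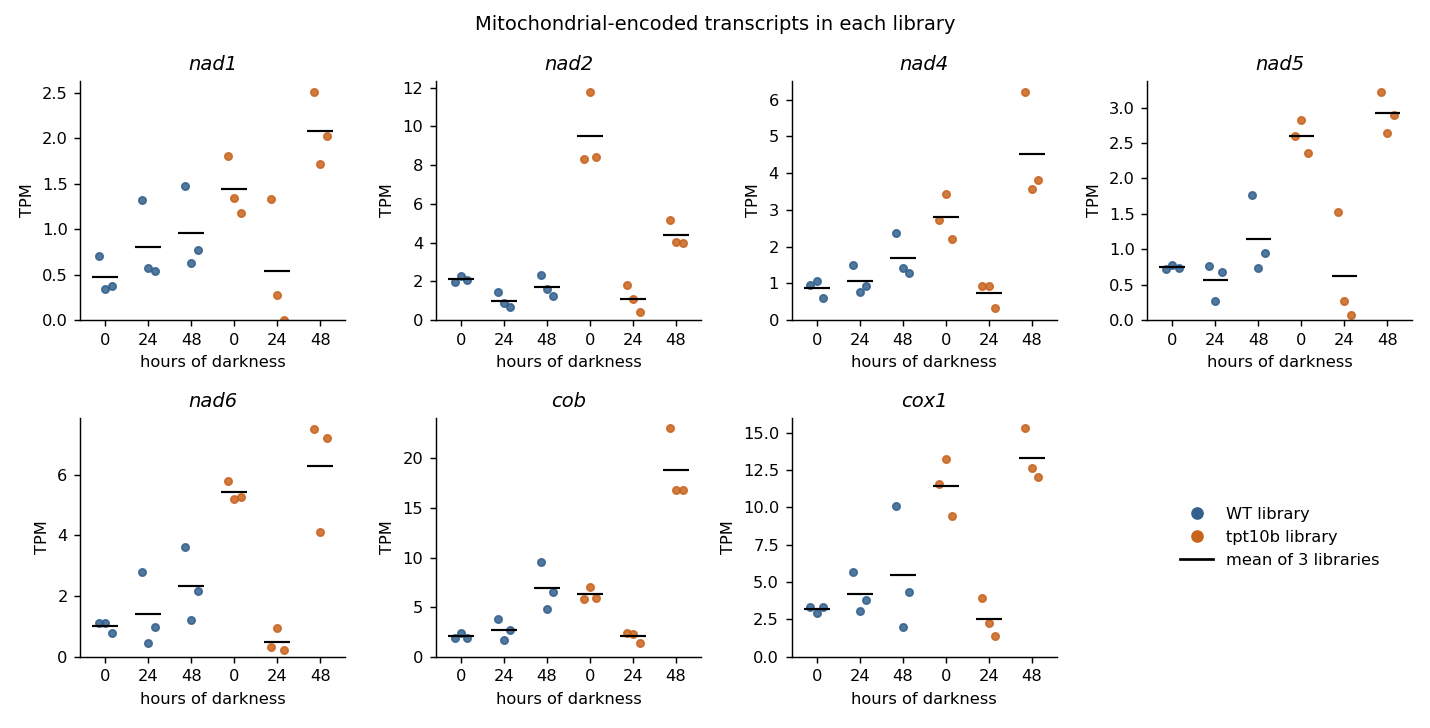
Level in TPM (vertical axis, a separate linear scale from 0 for each gene) of the 7 mitochondrial-encoded genes in each library against hours of darkness, blue for WT and orange for tpt10b, with a black line at the mean of 3 libraries. In tpt10b the 24 h libraries sit low between high 0 h and 48 h libraries in each panel, for example cob at 1.40 to 2.44 TPM between 5.86 to 7.03 and 16.8 to 23.0, with nad1 the only gene in which a 24 h library reaches into the 0 h range.

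In low light at 0 h, before any darkness, all 7 genes were higher in tpt10b than in WT, with every tpt10b library above every WT library. The share of all genes whose libraries separated in this way was not computed, here or in the comparisons below. Separation is therefore given as a description of the members only. In limma, which tested all 14731 genes kept, 50.8% of all genes were called higher too and 9.19% lower, with a median log2 difference of 0.41. The members' median was 1.25, with a range of 0.72 to 1.74. After rescaling 6 of the 7 remained higher where 13.2% of all genes were called higher, and the medians were 0.81 for the members and -0.02 for all genes.

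nad2 and nad6 had the largest differences at 0 h on the log2(TPM + 1) scale, nad2 first as deposited and nad6 by the ratio of means and after rescaling. nad2 averaged 9.49 ± 1.98 TPM in tpt10b against 2.11 ± 0.174 in WT, 4.51 times as much and a log2(TPM + 1) difference of 1.74 ± 0.22 (SE; limma adjusted p = 1.61e-05). nad6 stood at 5.43 ± 0.316 against 1.00 ± 0.194 TPM, 5.43 times as much, with a log2 difference of 1.69 ± 0.30 (adjusted p = 2.46e-04). The log2(TPM + 1) scale understates the change of such low genes. cox1 differed by 1.55 ± 0.34 (adjusted p = 0.00122), cob by 1.25 ± 0.23 (adjusted p = 2.53e-04), nad5 by 1.04 ± 0.24 (adjusted p = 0.00148) and nad4 by 1.01 ± 0.21 (adjusted p = 7.93e-04), which were 3.06 to 3.56 times the WT mean. nad1 differed by 0.72 ± 0.25 (adjusted p = 0.0193), a call lost after rescaling (0.46, adjusted p = 0.177) and without WT 0 h replicate 2, WT 0 h replicate 3 or tpt10b 0 h replicate 1 (highest adjusted p = 0.0746). The nad1 call was also lost with limma-voom on the recovered reads (adjusted p = 0.11).

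After 24 h of darkness the genotypes overlapped for every member. Limma called 0 of 7 in either direction, 0 at an unadjusted p under 0.05 and 0 with voom on the recovered reads, where 5.76% of all genes were called higher and 34.8% lower in tpt10b. The log2 differences ran from -0.61 ± 0.30 for nad6 and -0.60 ± 0.34 for cox1 to 0.04 ± 0.22 for nad2, with a median of -0.27 beside -0.23 for all genes. Without WT 24 h replicate 2 nad6 was called lower (-0.91, adjusted p = 0.0377), and without tpt10b 24 h replicate 1 nad1 was (-0.65, adjusted p = 0.0245).

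After 48 h of darkness every tpt10b library again lay above every WT library for all 7, a description without the share of all genes. Limma called 6 higher and 0 lower, where 5.20% of all genes were called higher and 1.39% lower, and the members' median was 1.03 (0.67 to 1.35) beside 0.12 for all genes. cob averaged 18.9 ± 3.59 TPM in tpt10b against 6.96 ± 2.39 in WT, 2.71 times as much (1.35 ± 0.23, adjusted p = 0.00255). cox1 stood at 13.3 ± 1.74 against 5.47 ± 4.19 TPM, 2.43 times as much (1.35 ± 0.34, adjusted p = 0.0293). That ratio was 4.23 without WT 48 h replicate 1, and without WT 48 h replicate 2 the log2 difference was 0.89 (adjusted p = 0.127). The differences of nad6 (1.15 ± 0.30, adjusted p = 0.0341), nad4 (1.03 ± 0.21, adjusted p = 0.00978), nad2 (1.00 ± 0.22, adjusted p = 0.0140) and nad5 (0.90 ± 0.24, adjusted p = 0.0342) passed as well. nad1 did not (0.67 ± 0.25, adjusted p = 0.104).

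Of these 48 h calls, those of nad5, cox1 and nad6 lay near the threshold. All except that of cob were lost in at least 1 fit with a library left out, which also leaves fewer libraries to test. Some were lost although the difference did not shrink, as for nad5 without tpt10b 48 h replicate 2 (0.95, adjusted p = 0.0821). The number called was 1 without tpt10b 48 h replicate 1, 3 without WT 48 h replicate 2, WT 48 h replicate 3 or tpt10b 48 h replicate 3, 4 without tpt10b 48 h replicate 2 and 7 without WT 48 h replicate 1. cob was called in each of these, but in a fit on the compared groups only 0 of 7 were (adjusted p = 0.0639 for cob), and at a pseudocount of 0.1 only 2. With voom on the recovered reads 4 were called, and nad5 (adjusted p = 0.0647) and nad6 (adjusted p = 0.056) were lost. After rescaling 5 were called higher, where 3.27% of all genes were, with a median of 0.92 beside 0.01, and nad5 was no longer called (0.81, adjusted p = 0.0592). The sample descriptions number the tpt10b 48 h replicates 4 to 6 where the titles give 1 to 3, and if those numbers mark another batch, it cannot be told apart from this group.

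**Figure D2:**
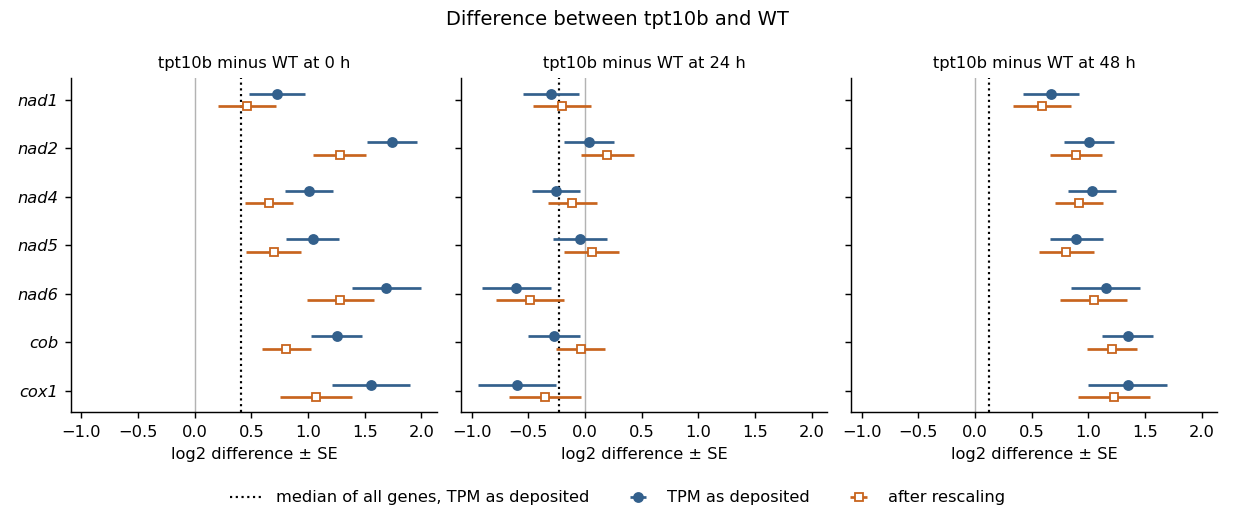
Log2(TPM + 1) difference of tpt10b minus WT (horizontal axis, ± SE of the limma fit) for the 7 genes at 0 h, 24 h and 48 h, as blue circles for TPM as deposited and open orange squares after rescaling, with a dotted line at the median of all genes. All 7 lie right of that line at 0 h and 48 h, with nad2 at 1.74 and cob at 1.35, while at 24 h they lie between -0.61 and 0.04 around it.

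In WT, limma called few of these transcripts changed in darkness. At such low levels a missing call does not show that a transcript stayed the same. After 24 h nad2 fell to 1.01 ± 0.415 TPM from 2.11 ± 0.174 (-0.65 ± 0.22, adjusted p = 0.0153; -0.82 after rescaling), a call lost without WT 24 h replicate 3 (adjusted p = 0.0757). It was the only 1 of the 7 called lower, where 25.8% of all genes were, and 0 of 7 were called higher, where 40.6% of all genes were. The other 6 had differences of -0.17 to 0.27 and overlapping libraries.

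After 48 h in WT, cob rose to 6.96 ± 2.39 TPM from 2.06 ± 0.259, 3.39 times as much (1.34 ± 0.23, adjusted p = 4.56e-05; 1.27 after rescaling). nad4 rose by 0.51 ± 0.21 (adjusted p = 0.0415), a call lost after rescaling (0.46, adjusted p = 0.0641). These were 2 of 7 called higher where 37.7% of all genes were (1 of 7 and 35.5% after rescaling). nad6 gave 0.68 ± 0.30 (adjusted p = 0.0560), cox1 0.42 ± 0.34 (adjusted p = 0.292), nad1 0.39 ± 0.25, nad5 0.27 ± 0.24 and nad2 -0.21 ± 0.22. The number called was 4 without WT 48 h replicate 2 and 1 without WT 0 h replicate 1, WT 0 h replicate 3 or WT 48 h replicate 1. From 24 h to 48 h cob alone was called higher (1.09 ± 0.23, adjusted p = 0.00106), where 16.8% of all genes were, and without WT 24 h replicate 1 nad6 was called too (0.90, adjusted p = 0.0195).

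In tpt10b all 7 genes fell in the first 24 h of darkness, and no library of 24 h reached the 0 h range except in nad1. The share of all genes that separated was not computed. nad2 fell from 9.49 ± 1.98 to 1.11 ± 0.691 TPM, an 8.59-fold lower mean (-2.35 ± 0.22, adjusted p = 4.91e-08). nad6 fell from 5.43 ± 0.316 to 0.497 ± 0.386 TPM, a 10.9-fold lower mean (-2.13 ± 0.30, adjusted p = 7.02e-06), or 19.6-fold without tpt10b 24 h replicate 2. cox1 changed by -1.88 ± 0.34 (adjusted p = 9.72e-05), cob by -1.27 ± 0.23 (adjusted p = 7.37e-05), nad5 by -1.25 ± 0.24 (adjusted p = 1.36e-04) and nad4 by -1.14 ± 0.21 (adjusted p = 1.13e-04). nad1 changed by -0.75 ± 0.25 (adjusted p = 0.0113), a call lost after rescaling (-0.48, adjusted p = 0.0996) and without tpt10b 24 h replicate 3, the library with 0 reads (-0.49, adjusted p = 0.0842). Of all genes 57.1% were called lower, with a median of -0.53 beside the members' -1.27. After rescaling 6 of 7 were lower, where 38.2% of all genes were, and the medians were -0.92 and -0.06.

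From 24 h to 48 h in tpt10b all 7 genes rose. Their libraries did not overlap between the times, but the share of all genes that separated was not computed. nad6 rose 12.6-fold to 6.28 ± 1.88 TPM (2.27 ± 0.30, adjusted p = 5.77e-06) and cob 9.22-fold to 18.9 ± 3.59 TPM (2.71 ± 0.23, adjusted p = 3.82e-08). nad6 rose 22.7-fold when tpt10b 24 h replicate 2 was left out. nad1 rose 3.86-fold (1.09 ± 0.25, adjusted p = 9.91e-04) and nad5 4.70-fold (1.37 ± 0.24, adjusted p = 7.74e-05), which became 14.9-fold and 17.03-fold without tpt10b 24 h replicate 1, so the order of the rises among members depends on single libraries. The members' median was 1.66, where the median of all genes was 0.29 and 46.5% of all genes were called higher. All 7 were called after rescaling too, where 36.3% of all genes were, with medians of 1.49 and 0.05, and with each of the 6 libraries left out in turn. The tpt10b 24 h values come from the libraries with reads on fewer genes and a higher mean plastid share, and the part of these in the results was not tested.

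Across the full 48 h in tpt10b, cob ended above its 0 h level and nad2 below it. cob rose 3.00-fold (1.44 ± 0.23, adjusted p = 2.01e-05; 1.67 after rescaling) and nad2 fell to 4.39 ± 0.671 from 9.49 ± 1.98 TPM (-0.95 ± 0.22, adjusted p = 8.57e-04; -0.69 after rescaling). nad4 rose by 0.53 ± 0.21 (adjusted p = 0.0330), a call lost without tpt10b 0 h replicate 1, tpt10b 0 h replicate 3 or tpt10b 48 h replicate 1 (highest adjusted p = 0.198). Of the 7 genes 2 were called higher and 1 lower, where 30.1% and 44.1% of all genes were, and the same 3 after rescaling, where 37.6% and 36.4% were. nad5, cox1, nad6 and nad1 gave 0.12 to 0.34 without passing.

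**Figure D3:**
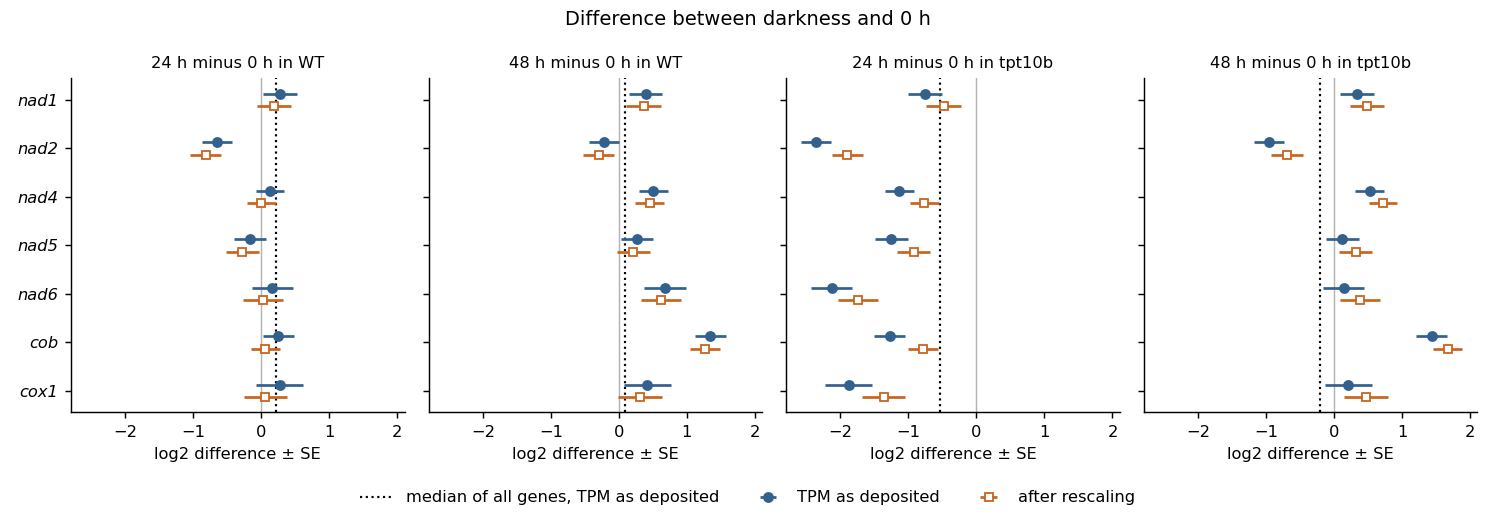
Log2(TPM + 1) difference of darkness minus 0 h (horizontal axis, ± SE of the limma fit) for the 7 genes at 24 h and 48 h in WT and tpt10b, as blue circles for TPM as deposited and open orange squares after rescaling, with a dotted line at the median of all genes. At 48 h cob lies far right in both genotypes, at 1.34 and 1.44, and nad2 is the only gene left of 0, at -0.21 and -0.95.

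The change from 0 h to 24 h of darkness differed between the genotypes for all 7 genes by the interaction test. It asks whether the change in tpt10b equals that in WT. The interaction terms were -2.29 ± 0.43 for nad6 (adjusted p = 3.24e-04), -2.15 ± 0.49 for cox1 (adjusted p = 0.00123) and -1.71 ± 0.31 for nad2 (adjusted p = 2.63e-04). Those of cob (-1.53 ± 0.32), nad4 (-1.27 ± 0.30), nad5 (-1.08 ± 0.34) and nad1 (-1.02 ± 0.35) passed as well, nad1 no longer without WT 24 h replicate 1 (adjusted p = 0.0525) or tpt10b 24 h replicate 3 (adjusted p = 0.0555). Of all genes 57.9% had a called negative interaction, with a median of -0.65 beside -1.53 for the members. After rescaling 5 of 7 passed, where 19.7% of all genes did, and nad5 (adjusted p = 0.143) and nad1 (adjusted p = 0.143) did not. With quantile normalisation cob (adjusted p = 0.0984) and nad4 (adjusted p = 0.263) did not pass either. At 48 h 0 of 7 interactions passed in limma and 0 with voom, and 1 had an unadjusted p under 0.05, where 26.4% of all genes had a called negative and 9.02% a called positive interaction. That gene was nad2 (-0.74 ± 0.31, adjusted p = 0.0731), while cob gave 0.09 ± 0.32.

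Within the mitochondrial-encoded signal the ratio of cob to nad2 was higher in every dark library than in the 0 h libraries of the same genotype. Ratios of members within a library do not depend on how libraries are scaled, and the pairs given were chosen after their values were seen, so they are descriptions. cob stood at 0.911 to 1.03 times nad2 in the WT libraries at 0 h, at 1.88 to 4.08 times at 24 h and at 3.06 to 5.27 times at 48 h. In tpt10b the same ratio was 0.597 to 0.710 at 0 h, 1.35 to 3.31 after 24 h and 4.17 to 4.46 after 48 h. In each genotype the 0 h libraries lay below all dark libraries, and at 48 h the tpt10b range lay within that of WT.

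As a share of the summed TPM of the 7 genes, cob held 19.6% ± 1.91 in WT at 0 h and 35.8% ± 4.54 after 48 h, and 16.0% ± 1.01 and 36.0% ± 1.34 in tpt10b. nad2 went the other way, from 20.1% ± 1.72 to 9.12% ± 3.15 in WT and from 23.9% ± 2.39 to 8.41% ± 0.393 in tpt10b. Within the left arm, cob was 2.59 to 3.02 times nad5 in the WT libraries at 0 h and 5.41 to 6.89 times after 48 h, and in tpt10b 2.25 to 2.53 and 5.79 to 7.15 times. cob and nad5 are read in the same direction. The left arm genes together held 35.1% ± 3.16 of the signal at 0 h and 50.3% ± 6.26 at 48 h in WT, and 29.6% ± 0.660 and 50.1% ± 1.71 in tpt10b. Most of this rise was in cob. Mean shares of nad4 went from 8.32% to 8.83% in WT and from 7.02% to 8.51% in tpt10b. Those of nad5 went from 7.13% to 5.67% and from 6.60% to 5.62%.

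**Figure D4:**
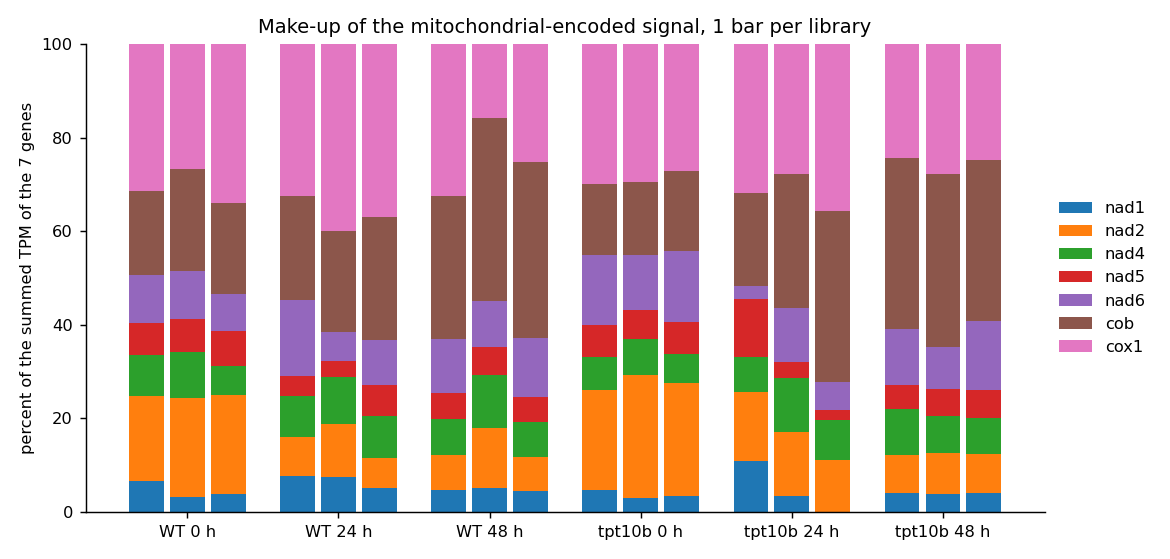
Share of each of the 7 genes in their summed TPM (vertical axis, percent), with 1 stacked bar per library and 3 libraries per group. The brown cob segment is widest in the 48 h groups, averaging 35.8% in WT and 36.0% in tpt10b, and the orange nad2 segment is widest at 0 h, averaging 20.1% and 23.9%.

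Summed over the 7 genes, TPM averaged 10.5 ± 0.562 in WT at 0 h, 11.8 ± 4.99 at 24 h and 20.3 ± 9.77 at 48 h. In tpt10b the sum averaged 39.5 ± 5.07 at 0 h, 8.04 ± 4.23 at 24 h and 52.4 ± 9.28 at 48 h. The share of plastid-encoded genes in TPM moved the other way in tpt10b, with 1.08% ± 0.260 at 0 h, 8.59% ± 2.58 at 24 h and 3.09% ± 0.0746 at 48 h. In WT that share was 2.11% ± 0.561, 5.95% ± 1.40 and 3.20% ± 1.35 at these times. What part this plays in the members' values was not tested. For each 1000 TPM of plastid-encoded genes WT had 0.518 ± 0.137 TPM of the 7 mitochondrial genes at 0 h, 0.199 ± 0.0722 after 24 h and 0.630 ± 0.0669 after 48 h, and tpt10b had 3.78 ± 0.977, 0.0890 ± 0.0233 and 1.69 ± 0.272. This ratio is free of the scale of a library. Its tpt10b libraries lay above those of WT at 0 h and 48 h and below them at 24 h. The denominator differed between the genotypes too. In tpt10b at 0 h 26 of the 74 plastid-encoded genes were called lower and 0 higher. Of all genes 9.19% were lower and 50.8% higher. At 24 h 17 were higher and 0 lower, where 5.76% and 34.8% of all genes were. The sums of the 7 genes overlapped at 24 h, at 3.81 to 12.3 TPM in tpt10b and 7.69 to 17.4 TPM in WT.

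**Figure D5:**
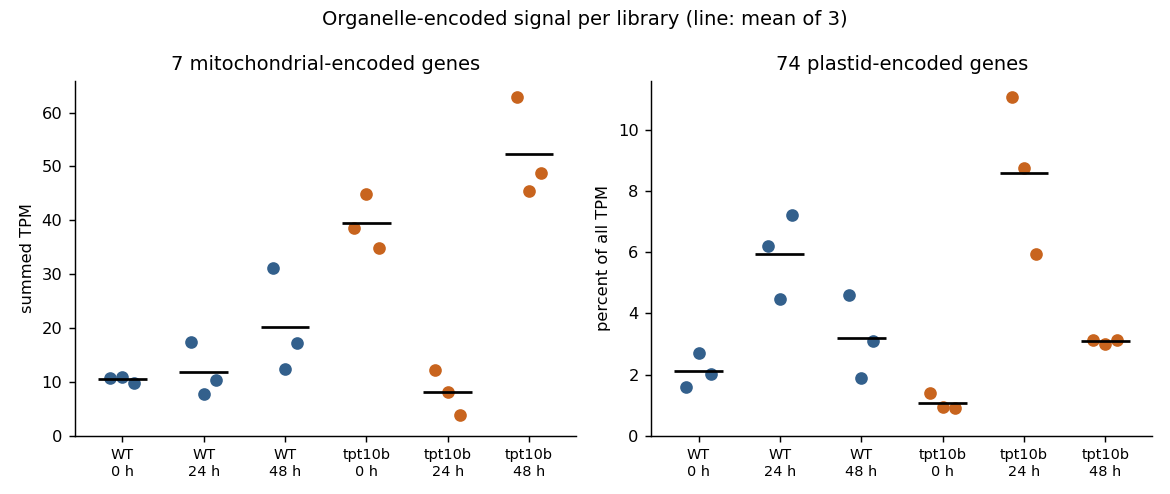
Summed TPM of the 7 mitochondrial-encoded genes (left, vertical axis in TPM) and share of the 74 plastid-encoded genes in all TPM (right, vertical axis in percent) in each library, with a line at the mean of 3 libraries. In tpt10b the mitochondrial sum is lowest at 24 h (mean 8.04 TPM) where the plastid share is highest (mean 8.59%).

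The remaining protein-coding mitochondrial row was rtl, the reverse transcriptase-like gene, which never reached 1 TPM and was not tested. It had 0 to 19 reads per library in WT at 0 h, 0 to 16 at 24 h and 26 to 42 at 48 h. The tpt10b libraries held 8 to 44 reads at 0 h, 0 in all 3 cases at 24 h and 7 to 50 at 48 h. A count of 0 in those 24 h libraries allows up to 0.0227 to 0.0315 TPM.

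The nuclear genes for the same complexes are given for comparison, from lists set by symbol. Of 44 nuclear complex I genes, 14 were higher and 0 lower in tpt10b at 0 h (median 0.24), where 50.8% of all genes were higher and 9.19% lower. After rescaling 0 were higher and 11 lower (median -0.30), where 13.2% of all genes were higher and 21.1% lower. NUOS1, a catalytic iron-sulfur subunit of the matrix arm, stood at 76.9 ± 3.01 TPM in tpt10b against 51.6 ± 7.12 (0.57, adjusted p = 0.00145; 0.02 after rescaling). At 48 h 1 of the 44 was higher and 0 lower (median 0.01), where 5.20% of all genes were higher, the higher gene being NUOB13 (0.68, adjusted p = 0.0486; no call after rescaling). In tpt10b from 24 h to 48 h, where all 7 mitochondrial genes rose, 9 nuclear complex I genes rose and 23 fell (median -0.37; 4 and 29 after rescaling). Of all genes 46.5% rose and 20.2% fell over that interval (36.3% and 31.6% after rescaling).

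The 6 genes COX2A, COX2B, COX3, ATP6, NUO3 and NUO11 encode proteins that are mitochondrial-encoded in many other organisms. At 0 h 3 of them were higher in tpt10b, a share close to the 50.8% of all genes. These were COX3 (537 ± 28.7 against 396 ± 18.6 TPM, 0.44), ATP6 (0.43) and NUO3 (0.36), and 0 of these 3 were called after rescaling (-0.12, -0.12 and -0.19), when COX2B was called lower (-0.35). After 48 h of darkness 5 of 6 had fallen in WT and 6 of 6 in tpt10b (5 and 5 after rescaling), where 32.4% of all genes fell in WT (36.7% after rescaling) and 44.1% in tpt10b (36.4%). COX2B, a fragment of the split COX2 protein of complex IV, fell from 681 ± 34.2 to 256 ± 35.9 TPM in WT (-1.42, adjusted p = 6.07e-10) and from 786 ± 18.3 to 305 ± 3.61 in tpt10b (-1.36, adjusted p = 9.08e-10). Over the same interval its mitochondrial-encoded partner cox1 gave 0.42 in WT and 0.21 in tpt10b, without passing.

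Of 8 nuclear complex IV genes, which include COX2A, COX2B and COX3, 8 fell after 48 h in each genotype (medians -1.27 in WT and -1.26 in tpt10b; 8 and 8 after rescaling), where 32.4% of all genes fell in WT and 44.1% in tpt10b (36.7% and 36.4% after rescaling). Of 10 nuclear genes for complex III, cytochrome c and the related mitochondrial processing peptidase, 8 fell in WT and 9 in tpt10b (8 and 9 after rescaling). The mitochondrial-encoded cob rose in both genotypes. At 0 h 4 of these 10 were higher and 0 lower in tpt10b (1 and 5 after rescaling), beside 50.8% and 9.19% of all genes (13.2% and 21.1% after rescaling). Among them were MPPA1 (1.17, and 0.66 after rescaling) and QCR1 (0.51, and -0.05 with no call after rescaling). The 4 genes of complex II, succinate dehydrogenase, which has no mitochondrial-encoded subunit in this alga, all fell after 48 h in each genotype (4 and 4 after rescaling). SDH2 among them changed by -1.40 in WT and -1.55 in tpt10b. Of 19 mitochondrial ATP synthase genes, 13 fell and 2 rose after 48 h in WT and 15 fell and 2 rose in tpt10b. After rescaling 13 fell and 2 rose in WT, and 12 fell and 2 rose in tpt10b. Beside the shares of all genes that fell, given above, 37.7% rose in WT and 30.1% in tpt10b (35.5% and 37.6% after rescaling).

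Subunits encoded in the mitochondrion are made on its own ribosomes. Of 72 nuclear-encoded mitochondrial ribosomal protein genes, 57 were higher and 0 lower in tpt10b at 0 h (median 0.66), where 50.8% of all genes were higher, and 14 higher and 1 lower after rescaling (median 0.15), where 13.2% were higher. At 48 h 0 were higher and 1 lower (median 0.05), where 5.20% and 1.39% of all genes were. In tpt10b from 24 h to 48 h 17 rose and 22 fell (median -0.08), and 14 rose and 39 fell after rescaling (median -0.38), where 46.5% of all genes rose and 20.2% fell (36.3% and 31.6% after rescaling). MOC1, of the mitochondrial transcription termination factor family, stood at 0.543 ± 0.282 TPM in WT at 0 h and rose by 0.61 after 24 h (adjusted p = 4.03e-04; 0.50 after rescaling). In tpt10b MOC1 gave 0.15 over the same 24 h (adjusted p = 0.284), and rose after rescaling (0.47, adjusted p = 0.00106). MOC2, listed with it, fell by 1.16 in tpt10b after 24 h (adjusted p = 2.11e-06; -0.68 after rescaling) and rose by 0.65 from 24 h to 48 h (adjusted p = 0.00101; 0.41 after rescaling).

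Across the 18 libraries the members varied together, with Pearson's r of log2(TPM + 1) from 0.598 (nad2 with cob) to 0.944 (nad4 with cob). These libraries share scaling and depth, and the values are descriptive. Among 3105 other named genes that averaged at least 5 TPM, the patterns most like the mean of the 7 genes were those of CGL64 (r = 0.921), ADH1 (r = 0.900), ATPVH1 (r = 0.884), DYRKP1 (r = 0.870) and CGLD19 (r = 0.865). ADH1, an aldehyde and alcohol dehydrogenase of fermentation, averaged 84.7, 78.2 and 178.6 TPM in WT over the 3 times and 244.9, 68.5 and 329.9 TPM in tpt10b.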

How the data were processed

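RNA of 18 libraries, 3 for each of 2 genotypes at 3 times, was analysed. The deposited values are TPM per gene of the CC-4532 v6.1 annotation, computed by the authors, per the file headers and legend. HISAT2 2.0.5 and StringTie 1.3.3b are named in the submitters' processing notes, without a role. The RNA was total RNA primed with random hexamers, per the labels' protocols. The counting tool, the strandedness and any RNA selection are not given in the sources used here, so reads of overlapping or opposite-strand genes cannot be told apart. TPM times length, scaled by 1 factor per library, was within 0.01 of whole reads for 100% of values. As 94.4% of the gene lengths divide by 3, they are called coding length.

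Limma 3.58.1 (R 4.3.3) fitted log2(TPM + 1) by group over all 18 libraries, with a variance trend, for the 14731 genes with at least 1 TPM in at least 3 libraries. Benjamini-Hochberg adjustment ran over those genes within each of 11 contrasts, with a threshold of 0.05, and the script was tested on simulated data. Named were all 7 genes and rtl, and of 8 lists of nuclear genes the 2 members with the smallest adjusted p in each genotype comparison, or all members for lists of 8 or fewer, of which examples are given. Further named were the 5 genes most like the members' mean. The members and lists were chosen with earlier results of these data known. Alternatives were pseudocounts of 0.1 and 5, no filter, a stricter filter (mean of 5 TPM), quantile normalisation, median-of-ratios rescaling, TPM of nuclear genes only, a replicate block, a fit on the compared groups only, limma-voom on the recovered reads and each library left out. Rescaling with a pseudocount of 0.1 was added after the data were seen. Tables and plots used Python 3.11.15, numpy 2.4.6, pandas 2.3.3, scipy 1.17.1 and matplotlib 3.10.9.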

Additional observations from a re-analysis of the deposited data

Results flagged for a closer look

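The change from 0 h to 24 h of darkness differed between tpt10b and WT for each of the 7 genes, by the limma test of the interaction itself. The interaction terms, as log2(TPM + 1), were -1.525 for cob, -1.266 for nad4, -1.082 for nad5, -2.154 for cox1, -1.706 for nad2, -2.294 for nad6 and -1.024 for nad1. The share of all genes with a called negative interaction was 57.9%, and after rescaling nad5 and nad1 no longer passed. With quantile normalisation cob and nad4 did not pass either. With rescaling at a pseudocount of 0.1, nad4 and nad2 were lost beside nad5 and nad1. Each term sets the genotype difference at 24 h (members' median -0.27) against that at 0 h (members' median 1.25), so both times enter it. The tpt10b 24 h libraries had reads on fewer genes and a higher mean plastid share (8.59% against 5.95% in WT at 24 h, with overlapping libraries). Their part was not tested. Groups of 3 libraries were too small for a check of outlying samples.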

How the results depend on the processing

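No called value changed sign in any alternative. Among the 77 results of 7 genes in 11 contrasts, sign changes occurred 52 times where neither value had passed, with sizes up to 0.352. Numbers of the 7 genes called are given next. A filter at a mean of 5 TPM left only cob and cox1 in the test, which by itself lowers the numbers. It gave 2 between genotypes at 0 h, 2 at 48 h, 0 for WT at 24 h, 1 for WT at 48 h, and for tpt10b 2 at 24 h, 1 at 48 h and 2 from 24 h to 48 h, with 2 interactions at 24 h. Between genotypes at 48 h, 6 became 4 with voom, 2 at a pseudocount of 0.1, 0 when just the compared groups were fitted and 1 with rescaling at a pseudocount of 0.1. For WT at 48 h, 2 became 1 with a pseudocount of 5, no filter, rescaling, quantile normalisation, voom or rescaling at a pseudocount of 0.1. The 7 interactions at 24 h became 3 with quantile normalisation and 3 with rescaling at a pseudocount of 0.1. The 0 interactions at 48 h became 1 with a pseudocount of 5 or the compared groups only. Apart from the settings that change the number of genes or samples in the fit, the cause was not tested. With each library left out in turn, the numbers were 6 to 7 between genotypes at 0 h, 0 to 1 at 24 h and 1 to 7 at 48 h. They were 0 to 1 for WT at 24 h, 1 to 4 at 48 h and 1 to 2 from 24 h to 48 h. For tpt10b they were 6 to 7, 2 to 3 and 7 to 7, and for the interactions 6 to 7 at 24 h and 0 to 0 at 48 h. With a replicate block the number was 4 for WT at 48 h and 1 for the interaction at 48 h, and 7 between genotypes at 48 h. Over all genes kept, the titles' replicate numbers did not pair the libraries. Of 45 correlations between libraries of the same number 6 exceeded 0.1. For 0 of 18 libraries was the closest match its own number. This check was not made on the 7 genes alone. Members with few reads, above all nad1 and nad6 in tpt10b at 24 h, limit how small a difference could be seen.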
